A study of Mus musculus with 6 samples.

Results

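Genes that tell immune cells to stand down, or to leave a cell uneaten, were followed in murine small cell lung cancer (SCLC) cells with and without ERBB2 editing. The set holds 10 genes chosen by name: the B7-family ligands Cd274 (PD-L1), Pdcd1lg2 (PD-L2), Cd80, Cd276 (B7-H3) and Vtcn1 (B7-H4), the nectin-type ligands Nectin2 (CD112) and Pvr (CD155), Lgals9 (galectin-9) and its receptor Havcr2 (TIM-3), and Cd47. Of the 10 genes, 9 had a row among the 20273 rows of the deposited table, and Vtcn1 is not analysed here. Transcripts of cultured cells of lung origin were read in 6 bulk RNA sequencing libraries, 3 per group. ERBB2 KO 1 to 3 came from cells transfected with a Cas9 construct against ERBB2, selected with puromycin and plate-sorted as single clones. WT 1 to 3 came from unedited SCLC cells grown in the same medium. The labels give no treatment beyond this and leave unsaid whether libraries sharing a group are separate cultures or clones, so the p-values speak only of the spread among these 6 libraries. In a difference between the groups, the edit cannot be told apart from the selection and sorting of clones or from the parental cells. The study calls the libraries of each group biological replicates. The study set the groups side by side to ask what ERBB2 does to antigen presentation and immune evasion.

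T cells and natural killer cells carry inhibitory receptors, and tumor cells can display the matching ligands. PD-L1 and PD-L2 bind PD-1, CD80 binds CD28 and CTLA-4, and CD112 and CD155 bind both the activating receptor DNAM-1 and the inhibitory receptor TIGIT, while galectin-9 is a ligand of TIM-3. CD47 binds SIRPα on macrophages and holds back phagocytosis, whereas surface calreticulin acts as a signal to be eaten.

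Levels are given as CPM, the reads of a gene scaled to a common library total, rebuilt from deposited log2 values. The library totals lay between 8927461 and 13255671 reads, so that 3 reads, the limit that a count of 0 allows, equal 0.226 to 0.336 CPM. These limits, like all counting intervals below, cover counting error only. In bulk samples fewer cells of a type and less RNA per cell cannot be told apart. The libraries did not divide cleanly by label. Xist, the RNA that coats the inactive X chromosome, was at 0.112, 0.0848 and 0 CPM in ERBB2 KO 1 to 3 and at 0, 208 and 178 CPM in WT 1 to 3. WT 1 correlated better with ERBB2 KO 2 and ERBB2 KO 3 (r = 0.959 and 0.955 across the genes tested, which are not independent replicates) than with WT 2 and WT 3 (r = 0.919 and 0.931), and ERBB2 KO 1 stood off from all others (r = 0.882 to 0.913). The difference of each tested member of the set is therefore also given without single libraries and with WT 1 as the sole control of ERBB2 KO 2 and 3, a comparison added after seeing the data in which the lone WT 1 is assumed to vary like the other group. Erbb2 itself was at 12.1, 6.19 and 2.80 CPM in ERBB2 KO and at 10.7, 3.95 and 6.64 CPM in WT (27 to 118 reads), so its transcript does not tell the groups apart. Reads from outside the edit, whose position is not given in the sources used here, do not check it. The study reports that the knockout was checked on protein, by western blot and flow cytometry, which RNA reads do not measure. Among the markers of the labelled cell type, the keratin genes Krt8 and Krt18 were at 590 to 973 and 719 to 945 CPM in ERBB2 KO and at 402 to 1060 and 282 to 1103 CPM in WT. Krt7, another keratin gene, was at 2.02, 0.254 and 0.519 CPM in ERBB2 KO and at 61.3, 279 and 2.19 CPM in WT, without overlap (log2 difference -4.41 ± 1.46, limma adjusted p = 0.350). Over all genes tested, 10.6% had every ERBB2 KO value below every WT value. Yap1, a transcriptional coactivator that marks non-neuroendocrine SCLC, was at 71.8, 43.7 and 48.0 CPM in ERBB2 KO and at 49.6, 75.6 and 84.0 CPM in WT. Cdh1, the gene of E-cadherin, reached 10.03 CPM in WT 3 and stayed under 1 CPM in the other 5 libraries. The neural adhesion gene Ncam1 was at 121, 353 and 345 CPM in ERBB2 KO and at 277, 1253 and 659 CPM in WT. The neuroendocrine vesicle gene Syp stayed under 1 CPM in the 6 libraries, and Neurod1, Pou2f3, Chga, Insm1 and Epcam are not analysed here.

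Promoter sequence is shown for the 4 genes whose groups did not overlap, and for Cd274, the best known target among the checkpoint ligands. Each run holds the 250 bases before the RefSeq start site in GRCm38.p6 (the assembly known as mm10), 5′ to 3′ on the strand of the gene. Capitals mark a match, on either strand, to one of 5 motifs: TTCNNNGAA (gamma-activated site), GAAANNGAAA (core of the interferon-stimulated response element), TGANTCA (AP-1), CACGTG (E-box) and GGGCGG (GC box). The windows are Havcr2 at chr11:46454681-46454930, plus strand; Lgals9 at chr11:78984925-78985174, minus strand; Nectin2 at chr7:19749574-19749823, minus strand; Cd47 at chr16:49855404-49855653, plus strand; and Cd274 at chr19:29367188-29367437, plus strand.
Havcr2: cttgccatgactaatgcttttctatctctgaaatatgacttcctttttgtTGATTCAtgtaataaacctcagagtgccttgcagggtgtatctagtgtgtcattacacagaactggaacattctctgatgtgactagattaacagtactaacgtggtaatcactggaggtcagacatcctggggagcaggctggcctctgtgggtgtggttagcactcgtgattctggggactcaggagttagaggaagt
Lgals9: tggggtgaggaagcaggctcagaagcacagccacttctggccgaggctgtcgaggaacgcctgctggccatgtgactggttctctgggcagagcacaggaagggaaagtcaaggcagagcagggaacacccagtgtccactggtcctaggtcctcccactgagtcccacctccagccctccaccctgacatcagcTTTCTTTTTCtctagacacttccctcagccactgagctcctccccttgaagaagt
Nectin2: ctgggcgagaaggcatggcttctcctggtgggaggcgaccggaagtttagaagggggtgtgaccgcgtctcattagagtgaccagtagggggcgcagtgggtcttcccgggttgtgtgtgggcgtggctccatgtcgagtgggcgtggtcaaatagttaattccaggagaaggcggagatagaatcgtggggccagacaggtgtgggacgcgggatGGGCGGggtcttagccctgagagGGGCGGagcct
Cd47: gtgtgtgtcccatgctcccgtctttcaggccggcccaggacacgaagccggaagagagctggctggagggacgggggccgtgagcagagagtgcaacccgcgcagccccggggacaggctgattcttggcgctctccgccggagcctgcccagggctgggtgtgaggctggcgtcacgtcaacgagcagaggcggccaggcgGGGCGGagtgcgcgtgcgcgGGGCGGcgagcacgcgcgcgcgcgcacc
Cd274: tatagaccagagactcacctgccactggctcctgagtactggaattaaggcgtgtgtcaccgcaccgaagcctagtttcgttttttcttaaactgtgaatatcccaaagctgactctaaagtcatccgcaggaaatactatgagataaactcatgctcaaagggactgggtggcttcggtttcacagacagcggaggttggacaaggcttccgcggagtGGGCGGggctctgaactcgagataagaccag

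The motifs differed between these genes. In windows of 300 bases, which add the first 50 bases after the start, Lgals9 held 2 matches to the interferon-stimulated response element core, beginning at 55 bases before and 15 bases after the start, a motif found in 3.44% of 32851 RefSeq promoters. Havcr2 held 1 match to the AP-1 motif, beginning 200 bases before the start (7.81% of promoters). Nectin2 and Cd47 held 3 GC boxes each and Cd274 held 1 (35.7% of promoters). Among the other genes of the set, Cd276 held 4 GC boxes, Cd80 and Vtcn1 held 1 AP-1 match each, and Pdcd1lg2 held no match. No window of the 9 genes in the table of promoters held the gamma-activated site (8.3% of promoters) or the E-box (7.15%), Cd47 has 2 windows of which the first was used, and Pvr is named only. A match describes the letters and is not a measured binding site.

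Of the 9 genes with a row, 7 were expressed well enough to be tested (at least 1 CPM in at least 3 libraries), and Pdcd1lg2 and Cd80 were not. Of the 7, 4 were on average higher in ERBB2 KO (Havcr2, Lgals9, Nectin2 and Cd47) and 3 lower (Cd276, Pvr and Cd274), while 46.8% of all genes tested had the higher mean in ERBB2 KO. None passed the test over all genes (limma on log2(CPM + 1), Benjamini-Hochberg adjustment over 11803 genes, two-sided, threshold 0.05), and over all 11803 genes 0 passed (percent called 0), by limma's voom as well. An unadjusted p below 0.05 was found for 1561 genes, and for 1553 by voom. Of the 7 genes 4 had an unadjusted p below 0.05 by limma, all higher in ERBB2 KO, where 5.96% of all genes tested were called in that direction, 7.27% were called lower and 13.2% were called in either direction. In the same 4 genes the lowest ERBB2 KO library exceeded the highest WT library, which held for 8.76% of all genes tested. The reverse held for 10.6%. The median log2 difference was 0.49 over the 7 genes and -0.04 over all genes tested. The set was chosen with earlier results of these data known, so these shares and medians are a description and not a test of the set. An exact permutation test of 3 against 3 libraries cannot give a p below 0.1.

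**Figure D1:**
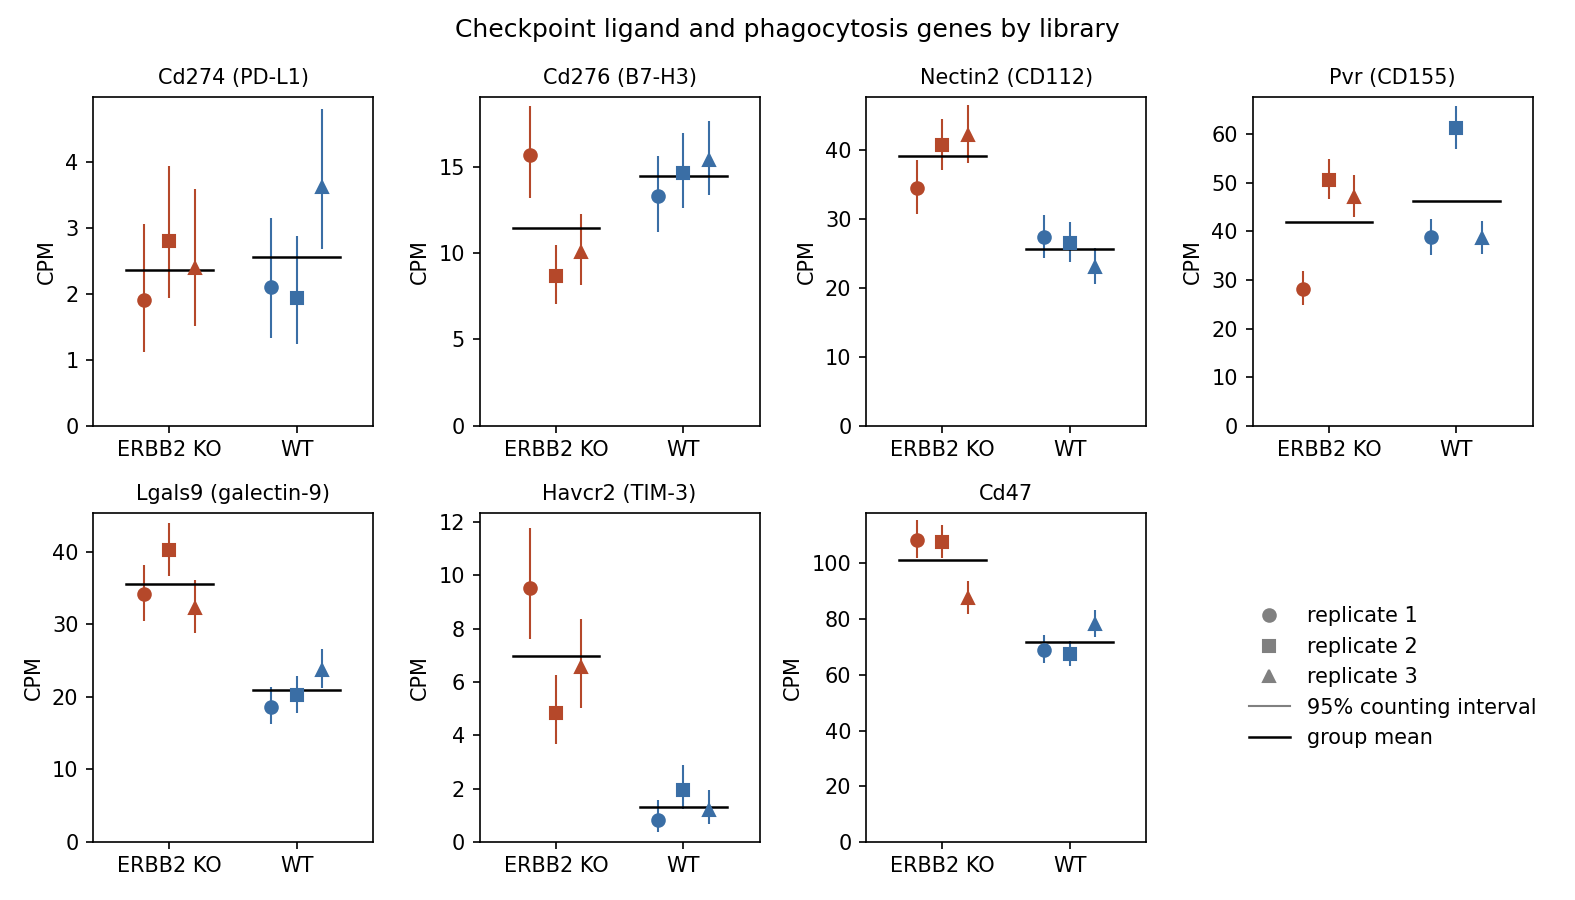
Level of the 7 tested genes in each library (vertical axis, CPM, starting at 0; ERBB2 KO left, WT right; point shape gives the replicate number, which is not used to pair libraries). Vertical lines are 95% Poisson counting intervals and horizontal bars group means; Nectin2, Lgals9, Havcr2 and Cd47 show 3 ERBB2 KO points above the 3 WT points, while Cd274, Cd276 and Pvr overlap.

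Havcr2 showed the widest difference of the set. TIM-3, its product, is a receptor best known from exhausted T cells and myeloid cells, so it is not itself a ligand on the tumor cell. The gene (chromosome 11, 46454931 to 46481255) was at 9.52, 4.83 and 6.54 CPM in ERBB2 KO 1 to 3 and at 0.819, 1.93 and 1.21 CPM in WT 1 to 3. The lowest ERBB2 KO library thus lay above the highest WT library, and their counting intervals did not meet (3.66 to 6.26 CPM in ERBB2 KO 2, against 1.24 to 2.88 CPM in WT 2). The values rest on 85, 57 and 63 reads in ERBB2 KO and on 9, 24 and 16 reads in WT. The group means were 6.97 ± 2.37 CPM in ERBB2 KO and 1.32 ± 0.566 CPM in WT (SD, n = 3 each), a ratio of 5.28. The difference in log2(CPM + 1), in which the added 1 shrinks the change of low genes, was 1.77 ± 0.34 (SE; 95% interval 0.96 to 2.58; limma, adjusted p = 0.321), larger than that of 98.7% of the genes tested. It was 1.54 without ERBB2 KO 1, 1.97 without ERBB2 KO 2, and ERBB2 KO 2 and 3 set against WT 1 alone gave 1.87 (limma, adjusted p = 0.287). With array quality weights, which count the libraries unequally and with which 14.9% of all genes tested passed, it passed as well (1.59, limma, adjusted p = 0.0195).

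Markers of leukocytes, the cells best known for TIM-3, were read beside Havcr2. Of 20 such markers 9 had a row, 6 of these stayed under 1 CPM in every library, and the summed level was 43.9, 12.5 and 16.6 CPM in ERBB2 KO 1 to 3 and 14.1, 22.4 and 18.0 CPM in WT 1 to 3. Ptprc, the pan-leukocyte gene of CD45, was at 0, 0 and 0.415 CPM in ERBB2 KO and at 0.182, 0 and 0 CPM in WT. The other 5 low markers were Cd3g, Cd79a, Itgam, Fcer1g and Laptm5. Cd68, a lysosomal gene used as a macrophage marker, was at 7.17, 4.41 and 4.88 CPM in ERBB2 KO and at 2.37, 1.53 and 1.21 CPM in WT (log2 difference 1.26 ± 0.32, limma adjusted p = 0.321). Lyz2, the myeloid lysozyme gene, was at 24.5, 1.02 and 1.77 CPM in ERBB2 KO and at 0.273, 0.0806 and 0.377 CPM in WT. Csf1r, the receptor of macrophage colony-stimulating factor, was at 12.0, 7.04 and 9.24 CPM in ERBB2 KO and at 10.7, 20.6 and 16.3 CPM in WT. Cd68 thus did not overlap between the groups, in the same direction as Havcr2, which held for 8.76% of all genes tested. Lyz2 reached 1 CPM in the ERBB2 KO libraries alone, so passing the filter already placed these above WT. Csf1r overlapped, with the lower mean in ERBB2 KO. The part of these markers in the result was not tested.

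Lgals9, the gene of galectin-9, was above every WT library in each ERBB2 KO library as well. The gene (chromosome 11, 78962979 to 78984924) was at 34.2, 40.2 and 32.3 CPM in ERBB2 KO 1 to 3 and at 18.7, 20.2 and 23.8 CPM in WT 1 to 3, from 305 to 474 and 205 to 315 reads. The means were 35.6 ± 4.13 CPM in ERBB2 KO and 20.9 ± 2.61 CPM in WT (SD, n = 3 each), a ratio of 1.70. Its log2 difference was 0.74 ± 0.20 (SE; 95% interval 0.26 to 1.22; limma, adjusted p = 0.327). It lay between 0.65 without ERBB2 KO 2 and 0.83 without WT 3, and ERBB2 KO 2 and 3 set against WT 1 alone gave 0.91 (limma, adjusted p = 0.495). With array quality weights it passed (0.64, limma, adjusted p = 0.0460).

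The nectin-type ligands lie near each other on chromosome 7, Nectin2 at 19716644 to 19749573 and Pvr at 19903578 to 19921143, 154 kb apart. Nectin2, whose product CD112 is a ligand of DNAM-1, TIGIT and PVRIG, was at 34.5, 40.7 and 42.2 CPM in ERBB2 KO 1 to 3 and at 27.3, 26.5 and 23.1 CPM in WT 1 to 3. The ERBB2 KO values, from 308 to 480 reads, did not overlap with the WT values, from 300 to 329 reads. The means were 39.1 ± 4.07 CPM in ERBB2 KO and 25.6 ± 2.24 CPM in WT (SD, n = 3 each), a ratio of 1.53. The log2 difference was 0.59 ± 0.19 (SE; 95% interval 0.14 to 1.04; limma, adjusted p = 0.350). Leaving out single libraries gave 0.52 to 0.68, ERBB2 KO 2 and 3 against WT 1 alone gave 0.58, and with array quality weights the gene passed (0.73, limma, adjusted p = 0.0264).

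Pvr, the gene of CD155, overlapped between the groups. It was at 28.2, 50.6 and 47.2 CPM in ERBB2 KO 1 to 3 and at 38.8, 61.2 and 38.7 CPM in WT 1 to 3. ERBB2 KO 1 was the lowest library and WT 2 the highest, and the other 4 lay between 38.7 and 50.6 CPM. The means were 42.0 ± 12.1 CPM in ERBB2 KO and 46.2 ± 13.0 CPM in WT (SD, n = 3 each), with a log2 difference of -0.15 ± 0.30 (SE; 95% interval -0.85 to 0.56; limma, adjusted p = 0.854). The sign turned without ERBB2 KO 1 (0.11) and with array quality weights (0.11), and ERBB2 KO 2 and 3 against WT 1 alone gave 0.33. The interval takes in differences of either sign, so Pvr is not shown to be alike in the groups.

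Cd47, the gene of the signal against phagocytosis (chromosome 16, 49851328 to 49912503), was at 108.5, 107.7 and 87.7 CPM in ERBB2 KO 1 to 3 and at 69.1, 67.5 and 78.4 CPM in WT 1 to 3. With 759 to 1270 reads a library it had the most reads of the set. The gap between the groups lay between ERBB2 KO 3 and WT 3, the nearest pair. The means were 101 ± 11.8 CPM in ERBB2 KO and 71.7 ± 5.87 CPM in WT (SD, n = 3 each), a ratio of 1.41. The log2 difference was 0.49 ± 0.17 (SE; 95% interval 0.08 to 0.90; limma, adjusted p = 0.350). It was 0.44 without ERBB2 KO 1, 0.59 without ERBB2 KO 3 and 0.49 with ERBB2 KO 2 and 3 set against WT 1 alone, and it did not pass with array quality weights (limma, adjusted p = 0.120).

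**Figure D2:**
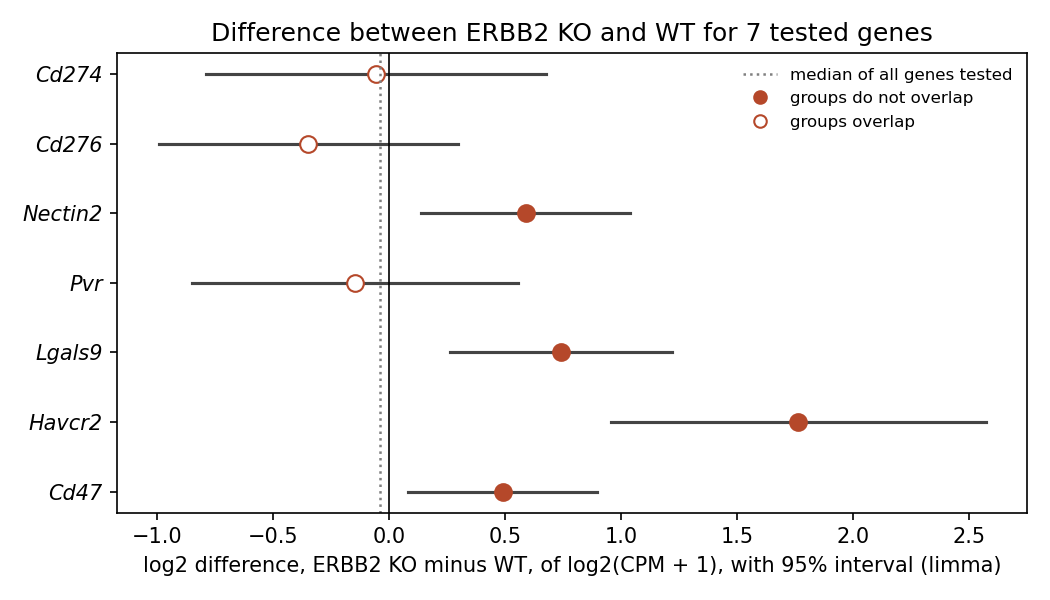
Log2 difference of ERBB2 KO minus WT (horizontal axis, log2(CPM + 1) scale) for the 7 tested genes, with limma's 95% interval as a bar. Filled points mark the 4 genes whose groups do not overlap, led by Havcr2 at 1.77; the dotted line is the median of all genes tested, -0.04.

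The B7-family genes were low or overlapped. Cd274 (chromosome 19, 29362107 to 29388095), the gene of PD-L1, was at 1.90, 2.80 and 2.39 CPM in ERBB2 KO 1 to 3 and at 2.09, 1.93 and 3.62 CPM in WT 1 to 3, from 17, 33 and 23 reads and from 23, 24 and 48 reads. WT 3 was the highest library and ERBB2 KO 1 the lowest, and the groups overlapped. The means were 2.36 ± 0.448 CPM in ERBB2 KO and 2.55 ± 0.931 CPM in WT (SD, n = 3 each). The log2 difference was -0.06 ± 0.31 (SE; 95% interval -0.79 to 0.68; limma, adjusted p = 0.947). Its sign depended on the libraries, at -0.18 without WT 2, 0.15 without WT 3 and 0.21 with ERBB2 KO 2 and 3 set against WT 1 alone. Counts this small leave wide intervals, 1.51 to 3.58 CPM for the 23 reads of ERBB2 KO 3. These cover counting error alone, and the interval of the difference, which rests on the spread between libraries, takes in either sign.

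Cd276 (chromosome 9, 58524300 to 58555033), the gene of B7-H3, was at 15.7, 8.65 and 10.1 CPM in ERBB2 KO 1 to 3 and at 13.3, 14.7 and 15.4 CPM in WT 1 to 3. ERBB2 KO 1 lay at the level of WT, and ERBB2 KO 2 and 3 lay below all 3 WT libraries. The means were 11.5 ± 3.72 CPM in ERBB2 KO and 14.4 ± 1.06 CPM in WT (SD, n = 3 each), with a log2 difference of -0.35 ± 0.27 (SE; 95% interval -0.99 to 0.30; limma, adjusted p = 0.590). It was -0.58 without ERBB2 KO 1, -0.18 without ERBB2 KO 2 and -0.47 with ERBB2 KO 2 and 3 set against WT 1 alone (limma, adjusted p = 0.698).

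Pdcd1lg2 and Cd80 were at the limit of detection. Pdcd1lg2 (chromosome 19, 29410919 to 29472927), the gene of PD-L2, which follows Cd274 after a gap of 22.8 kb, had 3 reads in ERBB2 KO 2 (0.254 CPM, 95% counting interval 0.0525 to 0.743 CPM) and 0 reads in the other 5 libraries. Cd80 (chromosome 16, 38457430 to 38495958), whose product also engages CTLA-4, had 1, 4 and 0 reads in ERBB2 KO 1 to 3 and 3, 2 and 1 reads in WT 1 to 3, at most 0.339 CPM. No fold is given for either gene. Vtcn1, the gene of B7-H4, is placed on chromosome 3 at 100825459 to 100896922 in the RefSeq table and has no value here.

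**Figure D3:**
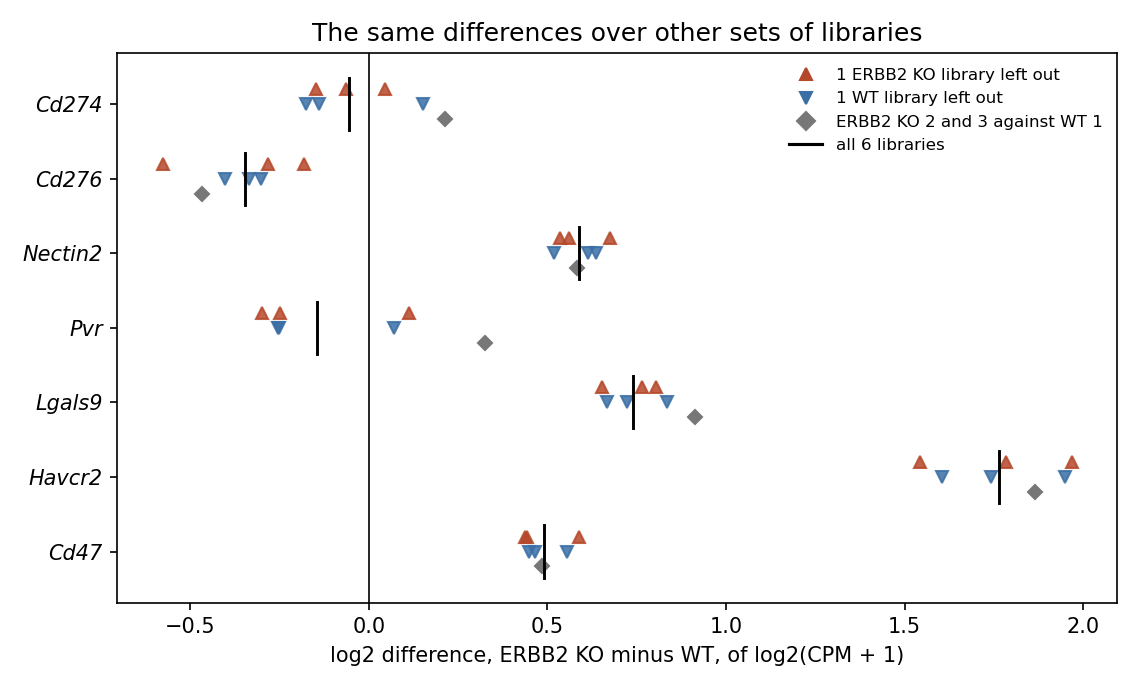
Log2 difference of ERBB2 KO minus WT (horizontal axis, log2(CPM + 1) scale) of each tested gene with 1 ERBB2 KO library left out (upward triangles), 1 WT library left out (downward triangles) and with ERBB2 KO 2 and 3 set against WT 1 alone (diamonds), beside the value over all 6 libraries (bar). Havcr2, Lgals9, Nectin2 and Cd47 stay right of 0 and Cd276 left of it in every set of libraries, whereas Cd274 and Pvr lie on both sides. In Havcr2, Lgals9, Nectin2 and Cd47 the groups do not overlap, so no set of libraries could move them across 0.

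The members also differed in how they varied inside a group. On the log2(CPM + 1) scale the SD over the 3 ERBB2 KO libraries was 0.15 for Nectin2, 0.16 for Lgals9, 0.17 for Cd47, 0.19 for Cd274, 0.41 for Cd276, 0.43 for Havcr2 and 0.45 for Pvr. Over the 3 WT libraries it was 0.12 for Nectin2, 0.17 for Lgals9, 0.11 for Cd47, 0.36 for Cd274, 0.10 for Cd276, 0.35 for Havcr2 and 0.37 for Pvr. Pvr and Havcr2 were thus uneven in both groups, Cd276 in ERBB2 KO only, and Cd274 more so in WT. The genes whose profile over the 6 libraries lay closest to a member were found by the root mean square difference of log2(CPM + 1) values, each centred on its own mean. These were Pank3 (0.036) and Zfp850 (0.070) for Nectin2, Hlx (0.064) and Commd9 (0.086) for Lgals9, and Ergic3 (0.047) and Rnf185 (0.065) for Cd47. For the overlapping genes they were Cep83 (0.053) and Gm43061 (0.060) for Cd276, Paox (0.065) and Tada1 (0.073) for Cd274, and Zfp948 (0.076) and Anxa2 (0.086) for Pvr. For Havcr2 they were Tmem254c (0.283), which has near-identical copies and is uncertain, and D5Ertd605e (0.321). The measure grows with the spread of the gene, and Havcr2 had an SD of 1.03 over the 6 libraries, against 0.26 to 0.43 for the other members, so the values are not ranked between members. With 6 libraries and 11803 genes such closeness is a description.

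The partners of CD47 and other signals that steer phagocytosis were lower on average. Of 16 such genes 14 had a row and 11 were tested. Of these 10 were lower and 1 (Mfge8) higher in ERBB2 KO, with a median log2 difference of -0.54 against -0.04 over all genes tested. By limma 1 gene, lower in ERBB2 KO, had an unadjusted p below 0.05 and 0 passed, while 7.27% of all genes tested were called lower. Thbs1, the gene of thrombospondin 1, a secreted ligand of CD47, was at 7.50, 28.6 and 16.9 CPM in ERBB2 KO 1 to 3 and at 26.4, 179 and 120 CPM in WT 1 to 3 (log2 difference -2.35 ± 0.75, limma adjusted p = 0.347). WT 1 lay among the ERBB2 KO libraries. Sirpa, the gene of the CD47 receptor SIRPα, was at 55.1, 0 and 0 CPM in ERBB2 KO and at 6.37, 28.5 and 29.2 CPM in WT, so the 3 ERBB2 KO libraries did not agree (limma, adjusted p = 0.527). Lrp1, the gene of a receptor for calreticulin, was at 28.3, 5.26 and 5.61 CPM in ERBB2 KO and at 7.10, 99.3 and 40.4 CPM in WT, and Anxa1, an annexin exposed by dying cells, was at 77.1, 92.2 and 52.9 CPM in ERBB2 KO and at 178, 84.8 and 76.6 CPM in WT. In Lrp1 as in Sirpa, ERBB2 KO 2, ERBB2 KO 3 and WT 1 were the 3 lowest libraries. Calr, the gene of calreticulin, and Cd24a, the gene of another signal against phagocytosis, were singled out after their values were seen. Calr was at 636, 471 and 601 CPM in ERBB2 KO and at 479, 868 and 810 CPM in WT. Cd24a was at 4.93, 236 and 259 CPM in ERBB2 KO and at 244, 127 and 198 CPM in WT, a single low library in ERBB2 KO 1.

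Other nectins, ligands and receptors of the pathway gave few measurable genes. Of 10 nectin and nectin-like genes 7 had a row and 3 were tested, all 3 with the lower mean in ERBB2 KO (median -0.43, 1 with an unadjusted p below 0.05, 0 passed). Of all genes tested, 7.27% were called lower at that unadjusted level. Nectin1, the gene of an adhesion molecule that pairs with other nectins, was at 3.47, 0 and 0 CPM in ERBB2 KO and at 5.19, 22.2 and 4.22 CPM in WT (log2 difference -2.46 ± 0.78, limma adjusted p = 0.347). Its ERBB2 KO values lay below the WT values, as in 10.6% of all genes tested and the opposite of Nectin2. Cadm1, an adhesion gene of the same superfamily, was at 135, 54.4 and 70.3 CPM in ERBB2 KO and at 79.8, 113 and 142 CPM in WT, and Nectin3 at 13.1, 11.4 and 17.6 CPM in ERBB2 KO and at 11.0, 12.8 and 18.7 CPM in WT. Both overlapped.

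Of 21 other B7, TNF-family and inhibitory ligands 12 had a row and 4 were tested, 2 higher and 2 lower in ERBB2 KO (median -0.25, 2 lower genes with an unadjusted p below 0.05, 0 passed). The share called lower over all genes tested was 7.27%. Nt5e, the gene of CD73, which makes immunosuppressive adenosine, was at 0.112, 0 and 0 CPM in ERBB2 KO and at 2.28, 5.32 and 5.28 CPM in WT. Nt5e reached 1 CPM in the WT libraries alone and had 1 read over the 3 ERBB2 KO libraries. Passing the filter therefore already placed its WT values above its ERBB2 KO values. The log2 difference was -2.29 ± 0.36 (SE; limma, adjusted p = 0.267, a value shared with genes of smaller unadjusted p). Hmgb1, a nuclear protein that also binds TIM-3 once released, was at 241, 242 and 203 CPM in ERBB2 KO and at 290, 460 and 438 CPM in WT (log2 difference -0.77 ± 0.22, limma adjusted p = 0.328). Hmgb1 did not overlap between the groups and lay the other way from Lgals9. All ERBB2 KO values lay below all WT values in 10.6% of all genes tested. The galectin genes Lgals3 and Lgals1 were at 696, 860 and 439 CPM and at 2492, 2704 and 3092 CPM in ERBB2 KO, and at 818, 129 and 179 CPM and at 2277, 2440 and 2140 CPM in WT. Lgals1 lay above WT in the 3 ERBB2 KO libraries (log2 difference 0.27 ± 0.16, limma adjusted p = 0.486), and Lgals3 overlapped, with WT 1 at the level of ERBB2 KO.

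Of 15 receptors of these ligands 8 had a row and 4 were tested, 1 higher and 3 lower in ERBB2 KO (median -0.06, 0 with an unadjusted p below 0.05, 0 passed). Siglecg, a relative of the human CD24 receptor SIGLEC10, was at 2.58, 9.84 and 13.1 CPM in ERBB2 KO and at 6.37, 1.53 and 1.51 CPM in WT. Tnfrsf9, the gene of the costimulatory receptor 4-1BB, was at 15.9, 2.37 and 2.18 CPM in ERBB2 KO and at 1.18, 9.91 and 7.54 CPM in WT. In both genes ERBB2 KO 2, ERBB2 KO 3 and WT 1 stood together, apart from the other 3 libraries. Pilra, the gene of an inhibitory receptor of myeloid cells, had a range of 0.594 to 1.68 CPM in ERBB2 KO, against 0.886 to 1.13 CPM in WT.

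**Figure D4:**
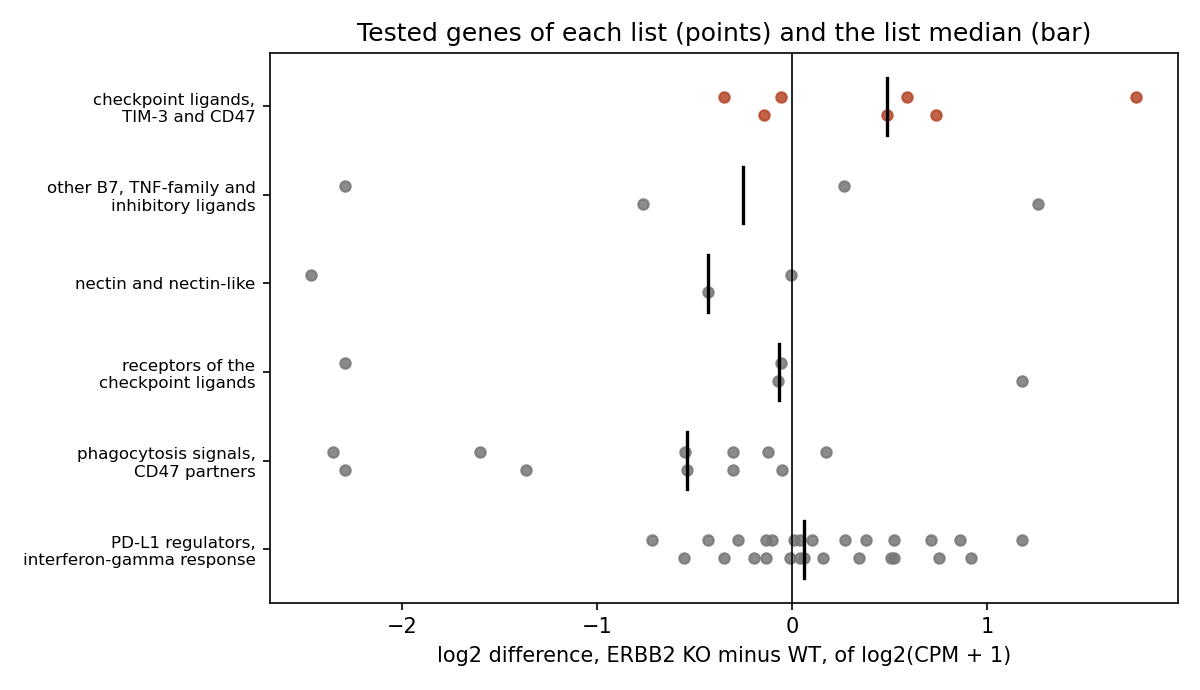
Log2 difference of ERBB2 KO minus WT (horizontal axis, log2(CPM + 1) scale) of each tested gene in the checkpoint and CD47 set and in 5 lists of related genes (points), with the list median (bar). The set's median lies at 0.49, and the medians of the phagocytosis and nectin lists lie at -0.54 and -0.43. The nectin list has 3 tested genes, of which Nectin3 lies at -0.0019. Set and lists were chosen with earlier results of these data known.

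Regulators of PD-L1 and the interferon-gamma response, the pathway best known to induce Cd274, were spread around 0. All 27 listed genes were tested, 17 higher and 10 lower in ERBB2 KO, with a median log2 difference of 0.06, 2 higher genes with an unadjusted p below 0.05 and 0 that passed. Over all genes tested the share called higher was 5.96%. Stat3, a transcription factor of cytokine signaling, was at 184, 83.4 and 66.4 CPM in ERBB2 KO and at 66.5, 26.6 and 47.4 CPM in WT (log2 difference 1.18 ± 0.46, limma adjusted p = 0.355). Btrc, a ubiquitin ligase subunit that acts on PD-L1, was at 6.27, 5.68 and 6.65 CPM in ERBB2 KO and at 4.73, 3.14 and 2.56 CPM in WT, without overlap (limma, adjusted p = 0.361). Irf1, the interferon-induced factor that drives Cd274, was at 116, 62.3 and 32.5 CPM in ERBB2 KO and at 33.3, 31.6 and 32.1 CPM in WT. ERBB2 KO 3 lay among the WT libraries for Irf1 (limma, adjusted p = 0.398). ERBB2 KO 1, where Irf1 was highest, was at 1.90 CPM for Cd274, from 17 reads (95% counting interval 1.11 to 3.05 CPM). A relation between Irf1 and Cd274 was not tested. Stat2, which carries type I interferon signals, was at 4.26, 3.39 and 1.97 CPM in ERBB2 KO and at 2.37, 0.644 and 1.06 CPM in WT (limma, adjusted p = 0.394).

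Fibroblast and endothelial markers were read over the same libraries. The 5 fibroblast markers with a row summed to 315, 8.31 and 27.3 CPM in ERBB2 KO 1 to 3 and to 45.8, 57.4 and 229 CPM in WT 1 to 3. The sums overlapped, and the single markers went different ways. The collagen gene Col1a1 was at 0.896, 1.70 and 0.831 CPM in ERBB2 KO and at 7.65, 2.66 and 6.26 CPM in WT (log2 difference -1.54 ± 0.40, limma adjusted p = 0.321). Its values did not overlap and lay lower in ERBB2 KO, as did 10.6% of all genes tested. Its partner Col1a2 was at 0.896, 5.51 and 26.1 CPM in ERBB2 KO and at 12.7, 52.2 and 199.8 CPM in WT (log2 difference -2.93 ± 1.18, limma adjusted p = 0.361). Dcn, the gene of the matrix proteoglycan decorin, was at 267, 0.509 and 0.312 CPM in ERBB2 KO and at 15.3, 0.403 and 22.3 CPM in WT. The growth factor receptor genes Pdgfra and Pdgfrb were likewise highest in ERBB2 KO 1, at 30.5 and 15.8 CPM, and were at most 0.594 CPM in ERBB2 KO 2 and 3 and at most 6.92 CPM in WT. The 3 endothelial markers with a row stayed under 1 CPM in every library. The part of these markers in the results was not tested.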

How the data were processed

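Bulk RNA sequencing of 3 ERBB2 KO and 3 WT libraries of murine SCLC cells was used. The authors deposited log2 CPM values (reads scaled by the library total) with a small prior. All columns share the lowest value, -2.48. Subtracting this floor (0.179 CPM) on the linear scale gave CPM columns that each summed to 999999.64, in which 100% of values above 0 were whole reads (tolerance 0.1 of a step), with totals of 8927461 to 13255671. The submitters' notes name mm10. The labels name TruSeq total RNA and the methods a QuantSeq preparation of 3' ends, which was not settled. The methods name Bwa, Samtools and GRCm39 in a passage that continues with mutation calling. That build differs from mm10, and whether the passage covers the expression values was not settled. The counting tool and annotation are not given in the sources used here.

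A gene was tested if 3 or more libraries reached 1 CPM (11803 of 20273 rows, 14 rows with symbols turned into dates left out). The test was limma 3.58.1 (R 4.3.3) on log2(CPM + 1) values (lmFit, eBayes with trend, group as the only term, Benjamini-Hochberg adjustment, threshold 0.05). It was tried on simulated counts with the same dispersion in every gene and no grouping of libraries within a group. That setting differs from these libraries, so it does not give the power of the test here. The study states unpaired two-sided tests in general. Of methods for counts, voom was run, on the recovered reads. Alternatives were the pseudocount, filter, scaling, voom on recovered reads, array quality weights, replicate block and leaving out each library. All members are named, with up to 4 genes of each other list (smallest unadjusted p), the 2 genes of closest profile per member, and marker genes of at least 1 CPM. Members and lists were chosen with earlier results of these data known. RefSeq GRCm38.p6 gave positions and promoters.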

Additional observations from a re-analysis of the deposited data

How the results depend on the processing

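No gene passed over all genes (0 of 11803) and no member of the set passed under the other pseudocounts, the deposited log2 scale, both filters, median-of-ratios scaling, quantile normalization, voom, scaling without AY036118 and mitochondrial reads, or the replicate block. Array quality weights (0.268, 1.42 and 1.91 for ERBB2 KO 1 to 3, and 0.418, 1.08 and 3.05 for WT 1 to 3) gave 1759 genes and 3 members that passed (Nectin2 0.73, Lgals9 0.64, Havcr2 1.59). The cause was not tested. Leaving out 1 library gave 0 to 146 genes (30 without ERBB2 KO 1, 146 without WT 1) and 0 members. Genes at an unadjusted p below 0.05 numbered 1561 over all libraries, 1553 by voom, 618 without WT 2, 808 without WT 3, 1965 without ERBB2 KO 1, 2473 without WT 1, 4181 with array quality weights and 253 for the 3 ERBB2 KO libraries against WT 1 alone. Under the replicate block 0 genes passed and 1286 had an unadjusted p below 0.05. The replicate numbers were not used to pair libraries in the main test. Deviations of same-numbered libraries from their group means correlated at -0.22, -0.16 and -0.05 across genes. These means come from groups of unlike libraries, so the values cannot settle whether libraries were paired. Nectin2, Lgals9, Cd47 and Cd276 kept their sign in 19 of 19 alternatives and Havcr2 in 18 of 18, against 14 of 18 for Cd274 and 14 of 19 for Pvr. In Nectin2, Lgals9, Cd47 and Havcr2 every ERBB2 KO value exceeded every WT value, so no choice of libraries could turn the sign. The replicate block and the run without a filter return the difference of the main fit. For these genes the count therefore largely restates the lack of overlap. Havcr2 and Cd274 could not be fitted with the filter at 5 CPM, which they do not pass. The 3 ERBB2 KO libraries against WT 1 alone gave 2.09 for Havcr2, 0.89 for Lgals9, 0.50 for Nectin2 and 0.54 for Cd47 (limma, adjusted p = 0.998 each). Depth limits Pdcd1lg2 and Cd80, which reach at most 3 and 4 reads in a library.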

Other observations

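The balance between paired signals was described by the ratio of their CPM values within each library, a ratio chosen after the values were seen and given without a test. Nectin2 over Pvr, the DNAM-1 and TIGIT ligands, was 1.22, 0.804 and 0.894 in ERBB2 KO 1 to 3 and 0.704, 0.433 and 0.597 in WT 1 to 3. The ERBB2 KO ratios lay above the WT ratios, although Pvr itself overlapped between the groups. Cd47 over Calr, a signal against phagocytosis set over one for it, was 0.171, 0.229 and 0.146 in ERBB2 KO 1 to 3 and 0.144, 0.0778 and 0.0968 in WT 1 to 3. Here ERBB2 KO 3 and WT 1 differed by little, and the other libraries lay further apart. Both ratios compare libraries and do not rank the genes, whose lengths differ.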
